A study of Mus musculus with 4 samples.

Results

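The transcripts of 9 genes of the insulin-like growth factor (IGF) axis were followed through the cells of the growing end of the mouse incisor: the ligand gene Igf1, the receptor genes Igf1r and Igf2r, and the genes Igfbp2, Igfbp3, Igfbp4, Igfbp5, Igfbp6 and Igfbp7 for IGF-binding proteins. They were chosen by gene symbol, and each symbol was found in the 4 single-cell count matrices, so that 9 of the 32285 listed genes are described. The proximal tissue of the lower incisor, the end that holds the stem cells of the tooth, was taken from mice at postnatal day 15 and sequenced as 3' single-cell RNA libraries, 2 from wild-type (WT) mice and 2 from Din-KO mice. Din-KO mice lack Din in the whole body through the tm1b form of a targeted allele, in which exon 2 is removed by germline Cre and a LacZ reporter stays behind. How many mice went into a library, and their sex, are not given in the sources used here. All p-values therefore measure the spread between libraries, which may in part be technical.

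IGF1 is a secreted growth factor that signals through the receptor tyrosine kinase IGF1R to the PI3K-AKT and MAPK pathways and promotes growth and survival. IGF2R, the cation-independent mannose 6-phosphate receptor, takes up IGF2 for breakdown and sorts lysosomal enzymes. The IGFBPs hold IGFs in the matrix and in body fluids and set how much ligand reaches the receptor, and proteases such as pappalysin-1 release it again. IGFBP7 binds IGFs only weakly and is a known product of blood vessel endothelium. In the tooth, the pulp is the mesenchyme inside the crown, and the dental follicle is the mesenchyme around the tooth that forms the periodontal ligament and the bone lining.

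The libraries held 32198098 to 54348039 unique molecular identifiers (UMIs, counted transcripts) in 3257 to 6958 barcodes, and 1272 to 4575 cells per library passed the filters, with median depths of 8016 to 11587.5 UMIs. Between 0 and 4 of the kept barcodes were shared by any pair of libraries. Cells were clustered with the 9 genes left out of the genes used for clustering, and clusters were named from marker genes with the ending "-like". In total 6637 cells were mesenchyme-like, among them 4134 of the dental pulp-like class, 1425 of the dental follicle-like class and 1078 odontoblast-like cells, and there were 749 endothelium-like, 77 perivascular-like, 579 epithelium-like, 1406 macrophage-like and 592 B-like cells. A cluster of 516 cells led by Ifitm1, Ldhb and Rspo4 carried mesenchyme markers but stayed unnamed, because Kit, on the mast cell list, was also among its leading genes. It held 263, 22, 221 and 10 cells in the libraries in the order given below, and with it counted as pulp the Igfbp3 and Igf1 fold changes in pulp-like cells were 1.07 and -0.77 on the log2 scale (1.06 and -0.80 without it). The libraries differed more by number than by genotype in make-up: dental pulp-like cells made up 45.7% and 43.5% of cells in WT replicate 1 and Din-KO replicate 1, but 13.5% and 12.0% in WT replicate 2 and Din-KO replicate 2. Cells with Y-linked transcripts made up 0% of mesenchyme-like cells in both WT libraries and 43.0% and 43.5% in the Din-KO libraries, so sex and genotype cannot be told apart except among cells with Xist. Din itself was read at 36.5, 28.6, 22.6 and 28.2 CPM (the UMIs of a gene per 1000000 UMIs of that class of cells in that library) in mesenchyme-like cells, but 3' reads do not check the removal of exon 2. Unless named, values of 4 libraries are given in the order WT replicate 1, WT replicate 2, Din-KO replicate 1, Din-KO replicate 2.

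The sums of the marker genes are given for the classes. The names were set from the same lists, so the sums describe the classes and do not check the names. The 9 endothelium markers summed to 8292 to 10498 CPM in endothelium-like cells, and the 8 macrophage markers to 18170 to 22759 CPM in macrophage-like cells. The 9 follicle markers summed to 4393 to 5233 CPM in dental follicle-like cells, against 365.0 to 710.0 CPM in dental pulp-like cells. The 12 pulp markers were less clear, since they summed to 2539 to 2969 CPM in dental pulp-like cells and to 3662 to 4535 CPM in dental follicle-like cells. Sfrp2, which is on the pulp list, led a follicle-like cluster together with Pcp4, which is on the follicle list. None of the 10 leading genes of the pulp-like cluster led by Vcan was on a list. Results for pulp and follicle are therefore also given cluster by cluster.

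The ligand Igf1 was highest in dental follicle-like cells, followed by perivascular-like and macrophage-like cells. In dental follicle-like cells its level was 873, 1746, 755 and 1363 CPM. In macrophage-like cells it was 301, 361, 295 and 314 CPM, and in dental pulp-like cells 82.3, 142.8, 56.0 and 71.9 CPM. The macrophage-like values were the most even of these and lay above all pulp-like values. Perivascular-like cells, the contractile cells along vessels, gave 687 CPM in WT replicate 1 and 333 CPM in Din-KO replicate 1, the only libraries with at least 20 such cells. Both lay below the follicle-like value of their own library, and their range overlapped that of macrophage-like cells. Endothelium-like cells held 80.7, 124.3, 48.6 and 30.8 CPM, and B-like cells, taken as the background that free RNA gives, averaged 7.6 CPM.

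The share of cells with an Igf1 UMI followed the levels. After each cell was thinned to 2000 UMIs, the share was 66.1% ± 12.9 (SD over 4 libraries) in dental follicle-like cells, 42.9% ± 3.9 in macrophage-like cells and 1.85% ± 0.73 in B-like cells. Before thinning the shares were 86.5%, 79.1% and 3.3%, at median depths of 10721 to 18029, 8938 to 10597 and 2579 to 3550 UMIs. Thinning kept 335 of 336, 421 of 423, 358 of 360 and 305 of 306 follicle-like cells, and 178 of 185, 197 of 203, 90 of 99 and 103 of 105 B-like cells.

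The receptors were distributed differently from the ligand. Igf1r was highest in dental pulp-like cells, at 191, 309, 228 and 348 CPM, followed by epithelium-like cells at 155, 174, 177 and 241 CPM and dental follicle-like cells at 117, 193, 170 and 196 CPM. Pulp lay above epithelium in 4 of 4 libraries, but the ranges overlapped, and epithelium, neutrophil-like and follicle-like cells did not differ beyond their spread. Macrophage-like cells held 39.5, 49.4, 31.2 and 38.3 CPM of Igf1r. The thinned share of cells with an Igf1r UMI was 40.5% in dental pulp-like cells, 6.1% in macrophage-like cells and 1.5% in B-like cells (unthinned 81.0%, 24.9% and 5.2%).

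Igf2r was highest in perivascular-like cells. Perivascular-like cells held 167 CPM in WT replicate 1 and 151 CPM in Din-KO replicate 1. Endothelium-like cells held 64.5, 100.9, 69.1 and 96.0 CPM and dental follicle-like cells 68.4, 102.4, 72.8 and 81.7 CPM. These last classes overlapped, whereas dental pulp-like cells, at 18.5, 41.2, 24.2 and 35.3 CPM, lay below both in each library. The Igf2r protein is best known as the uptake receptor for IGF2. The imprinted ligand gene Igf2 itself was read at 531 ± 39 CPM (SD, 4 libraries) in dental follicle-like cells and 372 ± 77 CPM in dental pulp-like cells.

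Among the binding protein genes, Igfbp3, Igfbp4 and Igfbp6 had their highest class level in dental follicle-like cells. IGFBP3 is the main carrier of IGF in blood, and its gene was read at 880.5, 1172, 2384 and 1890 CPM in dental follicle-like cells, at 552, 863, 964 and 852 CPM in endothelium-like cells and at 164, 531, 454 and 967 CPM in dental pulp-like cells. The follicle value was above the endothelium value in 4 of 4 libraries, though the ranges overlapped, and endothelium and pulp overlapped as well. IGFBP4 is a mostly inhibitory binding protein cut by pappalysin-1, and its gene was read at 1809, 2045, 2147 and 2360 CPM in dental follicle-like cells against 621, 1022, 698 and 891 CPM in endothelium-like cells. These ranges did not overlap. Macrophage-like cells also held Igfbp4, at 500.1, 558, 447 and 502 CPM, with 54.1% of thinned cells positive against 5.1% of B-like cells (unthinned 84.6% and 9.6%). Igfbp6, whose protein prefers IGF2, was read at 80.0, 84.3, 133 and 77.0 CPM in dental follicle-like cells and at 19.9, 32.5, 45.0 and 41.3 CPM in dental pulp-like cells, without overlap. Single clusters did not keep this order, since the pulp-like cluster led by Smoc2 held 152, 213, 181 and 103 CPM. The follicle-like cluster led by Mgp held 228, 199, 279 and 155 CPM. Those led by Sfrp2 (84.8, 74.0, 105 and 60.9 CPM), Bmp3 (93.2, 63.4, 149.5 and 57.8 CPM) and Spp1 (7.0, 2.9, 5.5 and 15.4 CPM) held less than the Smoc2 cluster in each library.

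Igfbp7 was highest in perivascular-like and endothelium-like cells, whereas Igfbp5 and Igfbp2 had no single highest class beyond the spread between libraries. IGFBP5 is a binding protein that attaches to extracellular matrix, and its gene was read at 1334, 1180, 1016 and 1238 CPM in dental pulp-like cells and at 682, 1609, 836 and 1185 CPM in dental follicle-like cells. Pulp was higher in 3 of 4 libraries and the ranges overlapped. Igfbp7 was read at 3788, 2773, 3530 and 3798 CPM in endothelium-like cells and at 5257 and 4757 CPM in perivascular-like cells of WT replicate 1 and Din-KO replicate 1, against 451 to 540 CPM in dental pulp-like cells. The thinned share of cells with an Igfbp7 UMI was 90.9% ± 2.2 in endothelium-like cells and 2.77% ± 2.68 in B-like cells (unthinned 98.6% and 4.9%). Igfbp2 was low, at 66.6, 44.5, 117 and 116 CPM in epithelium-like cells and 62.7, 90.2, 83.4 and 59.1 CPM in dental follicle-like cells. Epithelium was higher in 3 of 4 libraries and the ranges overlapped. No UMI of Igfbp2 was found in B-like cells of any library.

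**Figure D1:**
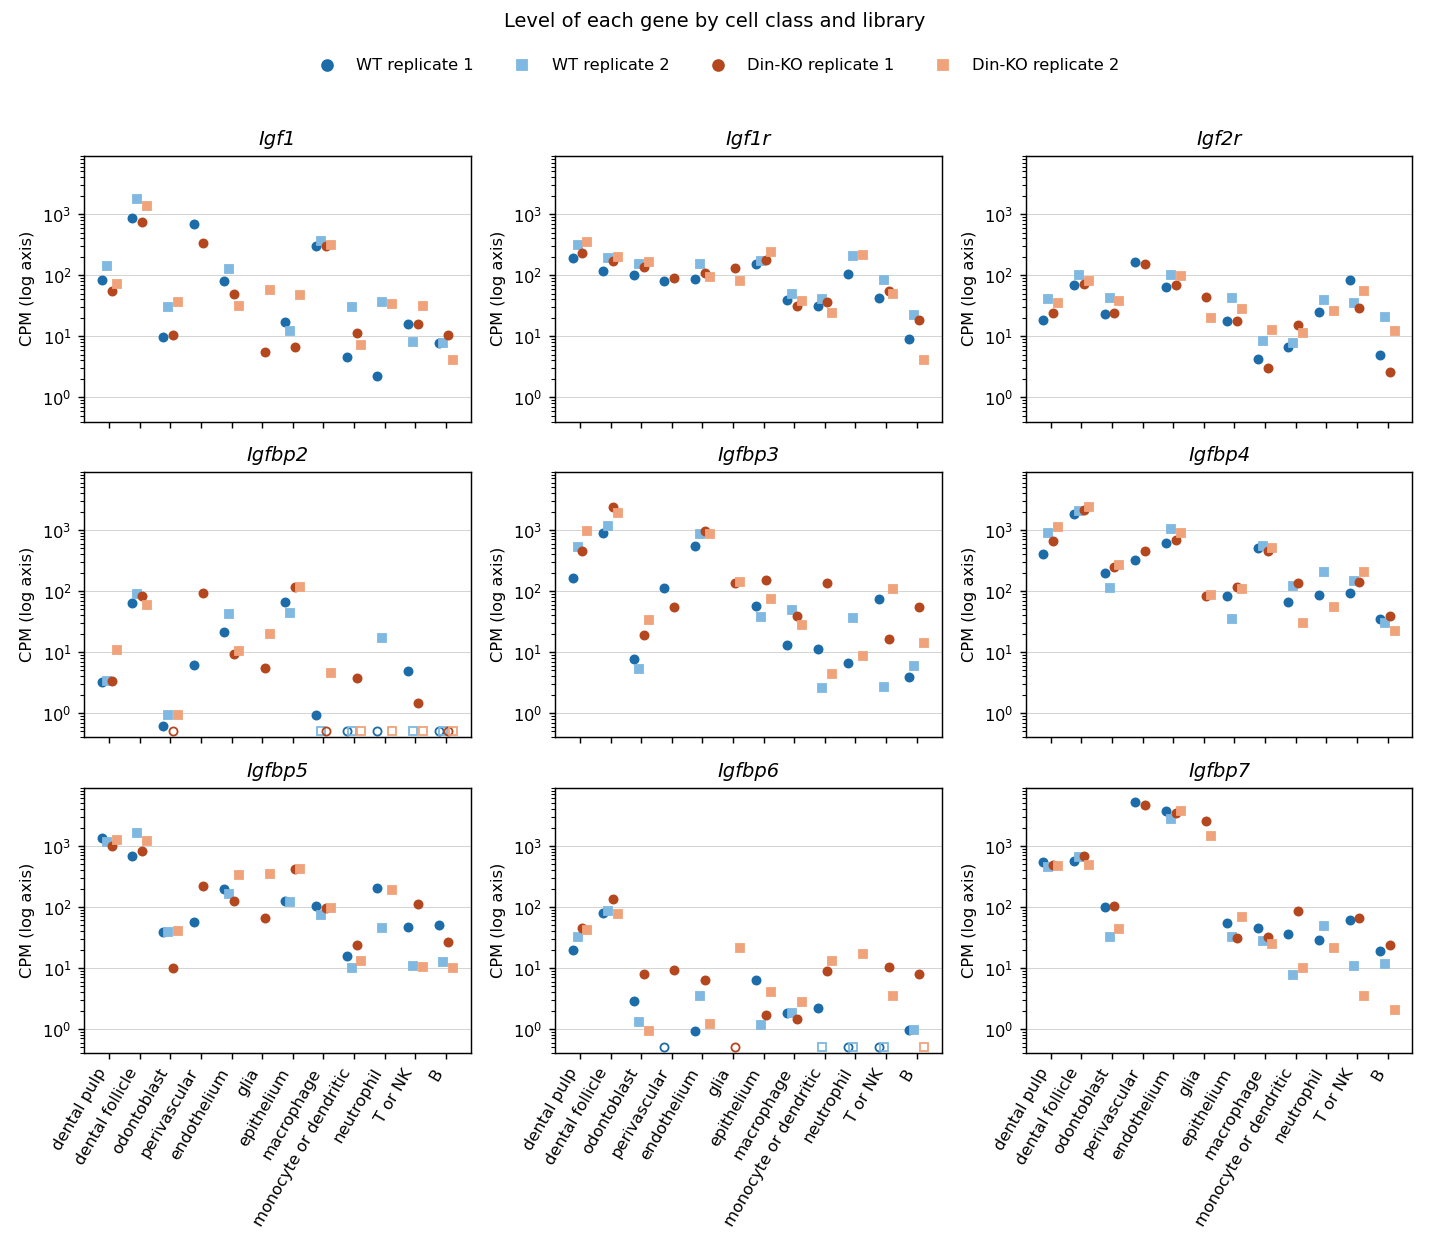
Level of each of the 9 genes (CPM, log axis) in each class of cells, 1 point per library, with open markers at the foot for values under 0.5 CPM and libraries with under 20 cells of a class left out. Igf1 sits highest in dental follicle-like cells, at 755 to 1746 CPM, and Igfbp7 in perivascular-like and endothelium-like cells, at 2773 to 5257 CPM.

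Since classes differ in size and in RNA content, the share of all UMIs of a gene that each class gave was counted too. Dental follicle-like cells were 16.9% of cells on average, and gave 71.6% ± 21.6 (SD, 4 libraries) of Igf1 UMIs, 65.7% ± 18.6 of Igfbp6, 63.6% ± 15.6 of Igfbp3, 56.9% ± 19.8 of Igfbp4 and 51.7% ± 16.8 of Igfbp2. Endothelium-like cells were 7.0% of cells and gave 44.9% ± 9.1 of Igfbp7. Macrophage-like cells gave 14.4% ± 14.0 of Igf1, and the spread followed the make-up of the libraries, from 2.4% to 31.7%. For Igfbp5 the larger source changed with the library. Dental pulp-like cells gave 75.5% and 64.3% of it in WT replicate 1 and Din-KO replicate 1, but 15.8% and 14.8% in WT replicate 2 and Din-KO replicate 2, where dental follicle-like cells gave 76.5% and 60.5%.

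**Figure D2:**
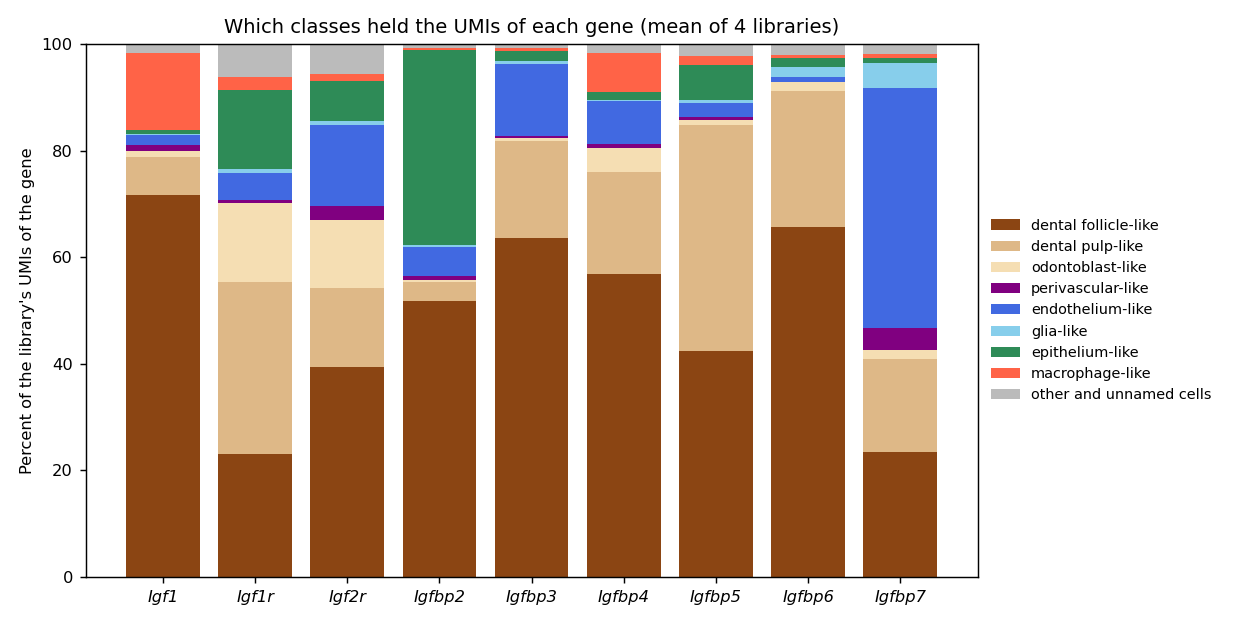
Percent of each gene's UMIs that came from each class of cells, as stacked bars for the mean of 4 libraries. Dental follicle-like cells gave 71.6% of Igf1 UMIs and endothelium-like cells 44.9% of Igfbp7 UMIs.

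The binding protein genes parted the pulp-like clusters from each other. The cluster led by Cldn10, Trf and Ifitm1 held 3139 ± 926 CPM (SD, 4 libraries) of Igfbp5, and the clusters led by Cnmd and by Pdlim3 held 1806 ± 142 and 1202 ± 9 CPM in the 2 libraries with at least 20 of their cells. The cluster led by Vcan, Col9a3 and Grik1 held 66.9 ± 47.2 CPM of Igfbp5, and the cluster led by Smoc2, Lypd1 and Ecel1 held 121 ± 171 CPM. Igfbp3 was highest in the Smoc2 cluster, at 2298 ± 1026 CPM, against 51.4 ± 21.4 CPM in the Cldn10 cluster and 15.1 ± 3.9 CPM in the Vcan cluster. Igfbp4 was also highest in the Smoc2 cluster, at 2110 ± 617 CPM, followed by 620 ± 152 CPM in the Vcan cluster and 205 ± 31.5 CPM in the Cldn10 cluster. Igfbp6 was 162 ± 47 CPM in the Smoc2 cluster and 3.0 ± 1.3 CPM in the Cldn10 cluster. The levels are a description, since clusters are groups of cells made from the same data. Igf1r varied little, from 221 to 284 CPM on average over the 5 pulp-like clusters.

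**Figure D3:**
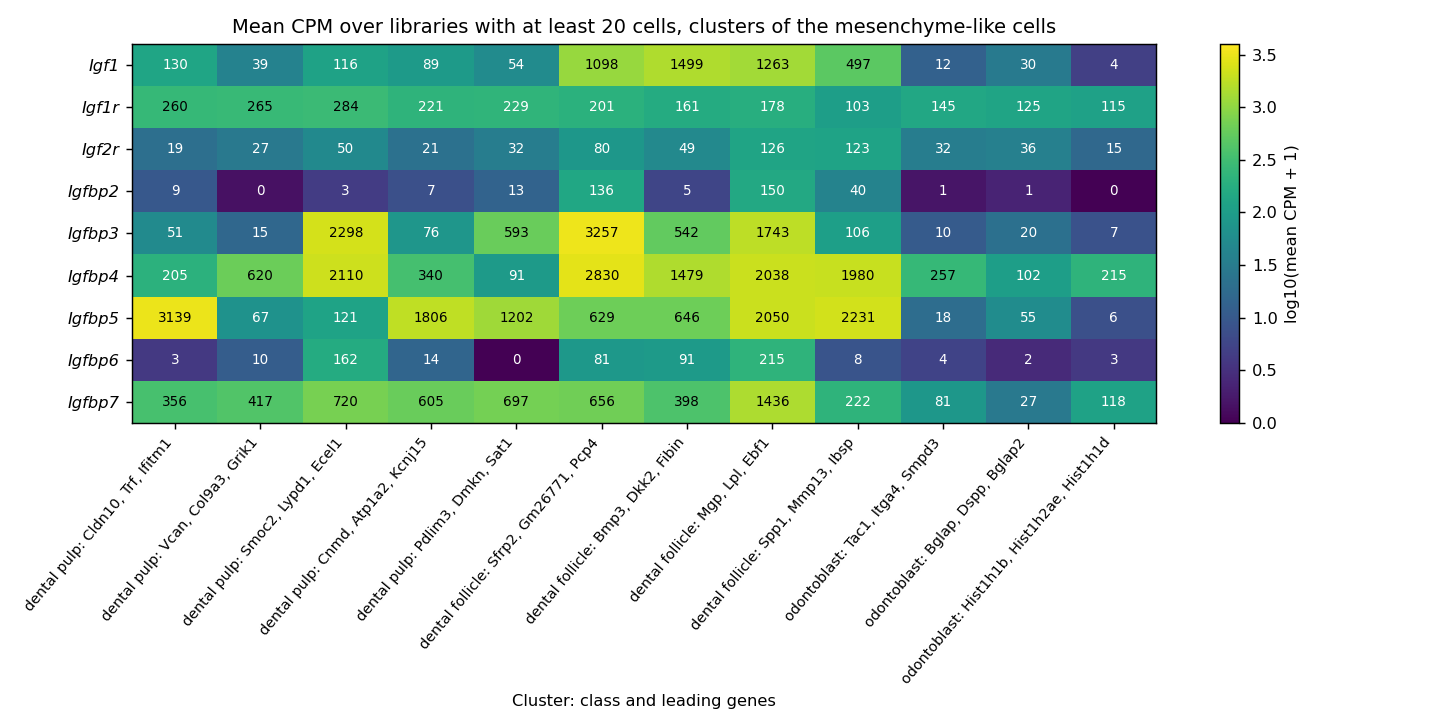
Mean level (CPM, number in each field, colour on a log scale) of the 9 genes, as rows, in the 12 clusters of mesenchyme-like cells, as columns, over libraries with at least 20 cells of the cluster. Igfbp5 is at 3139 CPM in the pulp-like cluster led by Cldn10, where Igfbp3 is at 51.4 CPM, and Igfbp3 is at 2298 CPM in the cluster led by Smoc2, where Igfbp5 is at 121 CPM.

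The follicle-like clusters differed as well. Igf1 was 1499 ± 301 CPM in the cluster led by Bmp3, Dkk2 and Fibin, 1263 ± 545 CPM in the cluster led by Mgp, Lpl and Ebf1, 1098 ± 488 CPM in the cluster led by Sfrp2, Gm26771 and Pcp4, and 497 ± 366.5 CPM in the cluster led by the bone and matrix genes Spp1, Mmp13 and Ibsp. The spreads of the first 3 overlapped. Ibsp is on a list of osteoblast (bone-forming cell) markers. Of the 10 leading genes of the Spp1 cluster only Mmp13 is on the follicle list, so the class of that cluster is less sure. Igfbp3 was 3257 ± 1417 CPM in the Sfrp2 cluster and 106 ± 54 CPM in the Spp1 cluster. Igfbp2 was 136 ± 26 CPM in the Sfrp2 cluster and 150 ± 42 CPM in the Mgp cluster but 4.6 ± 1.3 CPM in the Bmp3 cluster. Igfbp5 was highest in the Spp1 and Mgp clusters, at 2231 ± 906 and 2050 ± 731 CPM, and Igfbp7 in the Mgp cluster, at 1436 ± 491 CPM. The clusters classed as odontoblast-like, led by Tac1, Bglap and Hist1h1b, held at most 55.2 CPM of Igfbp3 and Igfbp5 on average. The Hist1h1b cluster was led mostly by histone and cell cycle genes, with 0 odontoblast markers among its 10 leading genes, so its class is less sure.

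Within vessels, Igfbp3 and Igfbp7 marked different endothelium-like clusters from Igfbp4. The cluster led by Gja4, an arterial connexin gene, held 2306 ± 573 CPM of Igfbp3 and 4883 ± 698 CPM of Igfbp7. The cluster led by Gpihbp1, a gene of capillaries, held 473 ± 147 and 3720 ± 719 CPM of the same genes. In the cluster led by Vwf, Apoa1 and Slco1a4 Igfbp3 was 98.6 ± 117.5 CPM and Igfbp7 1085 ± 36 CPM, while Igfbp4 was 1303 ± 264 CPM against 716 ± 192 CPM in the Gja4 cluster. Both macrophage-like clusters held Igf1, at 340 ± 39.5 CPM in the cluster led by C1qa and 228 ± 27 CPM, over 3 libraries, in the cluster led by Pf4 and Lyve1. Igfbp5 was 33.0 ± 15.6 CPM in the former and 264 ± 40 CPM in the latter.

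The promoters of the binding protein genes that part the pulp-like clusters are shown as RefSeq gives them on GRCm38.p6, from 250 bases before to 50 after the annotated start, each written 5' to 3' on the strand of its gene. Capitals mark exact matches, on either strand, to the motifs TATAAA (a form of the TATA box), GGGCGG (a GC box) and CCAAT. Igfbp3 lies on the minus strand, with its window at chr11:7213874-7214173, Igfbp4 on the plus strand at chr11:99040994-99041293, and Igfbp5 on the minus strand at chr1:72874816-72875115.
Igfbp3: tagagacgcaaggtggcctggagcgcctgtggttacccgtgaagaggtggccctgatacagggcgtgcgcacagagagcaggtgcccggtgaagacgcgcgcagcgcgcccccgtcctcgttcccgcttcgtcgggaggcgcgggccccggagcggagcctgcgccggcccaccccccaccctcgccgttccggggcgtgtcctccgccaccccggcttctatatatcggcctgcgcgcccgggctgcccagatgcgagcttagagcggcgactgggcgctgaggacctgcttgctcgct
Igfbp4: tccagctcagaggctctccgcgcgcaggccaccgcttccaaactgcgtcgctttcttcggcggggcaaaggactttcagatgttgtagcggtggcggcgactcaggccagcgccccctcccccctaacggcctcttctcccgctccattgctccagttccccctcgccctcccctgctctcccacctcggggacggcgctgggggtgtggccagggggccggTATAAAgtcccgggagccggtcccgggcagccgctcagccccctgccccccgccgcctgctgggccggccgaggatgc
Igfbp5: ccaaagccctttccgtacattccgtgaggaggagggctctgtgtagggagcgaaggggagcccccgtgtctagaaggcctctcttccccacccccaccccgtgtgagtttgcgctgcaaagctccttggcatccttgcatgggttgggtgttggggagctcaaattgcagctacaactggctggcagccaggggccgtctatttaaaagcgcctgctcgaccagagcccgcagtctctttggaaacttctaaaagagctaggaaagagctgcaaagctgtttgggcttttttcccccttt
The windows of Igfbp3 and Igfbp4 hold 71.7% and 71.3% G and C, and that of Igfbp5 56.3%, against a median of 52.7% over 32851 windows. Igfbp4 has a TATAAA match at bases 223 to 228 of the window, and the other windows shown hold no exact match to the 3 motifs. Variants were not searched, such as tatatat in the Igfbp3 window and tatttaaa in the Igfbp5 window. Of all windows 13.6% hold TATAAA, 35.7% GGGCGG and 37.4% CCAAT. Windows were found for 9 of 9 genes. In the genome Igfbp2 (chr1:72824503-72852474, plus strand) and Igfbp5 (chr1:72857932-72874884, minus strand) are neighbours with 5457 bases between them. The Pearson r between their levels was 0.67 over the 44 class sums described next. On the opposite strand 4 genes overlap members, namely Igf1os with Igf1, Airn with Igf2r, and Polr2b and Gm34648 with Igfbp7.

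As a description, each gene's pattern was set against 9705 other genes over 44 class sums from 13 classes, which share libraries and differ in depth. The most similar patterns to Igf1 were those of C1ra (Pearson r = 0.82), Timp2 and Tln2, and to Igf1r those of Golim4 (0.88) and Adgra3. Igf2r was nearest to Apbb2 (0.83), and Igfbp2 to Emp2 (0.84). Igfbp3 was nearest to Hmcn1 (0.92) and Lepr (0.85), Igfbp4 to Eva1b (0.83), Igfbp5 to Olfml3 (0.82), Igfbp6 to Igf2 (0.83), and Igfbp7 to the endothelial genes Cavin3 (0.95) and Rhoj (0.94). Between the members, r ranged from 0.20 for Igf2r with Igfbp6 to 0.80 for Igf1 with Igfbp4, and was 0.33 for the ligand Igf1 with its receptor Igf1r.

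The loss of Din was then examined in the 5 classes with at least 20 cells in each library, by edgeR's quasi-likelihood test on the summed counts of each library with adjustment over all genes. None of the members passed an adjusted p of 0.05 in any class, by edgeR or by DESeq2. Few genes of any kind passed, at 0% of 15190 genes in mesenchyme-like cells, 0.0149% in dental pulp-like, 0.00771% in dental follicle-like, 0.0534% in endothelium-like and 0.073% in macrophage-like cells. At an unadjusted p under 0.05 there were 0 of 9 members in mesenchyme-like cells (1.03% of all genes), 2 of 9 in pulp-like (1.86%), 1 of 9 in follicle-like (2.23%), 2 of 8 in endothelium-like (2.71%) and 0 of 7 in macrophage-like cells (2.65%). The test had little power with 2 libraries a group and no account taken of the replicate number. At the spread of that fit, simulated 2-fold changes were recovered for 3% of genes in mesenchyme-like and 12% in follicle-like cells. Simulated 4-fold changes were recovered for 35% and 75%. In bulk sums such as these, fewer cells of a kind within a class and less RNA per cell cannot be told apart.

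In mesenchyme-like cells as a whole, Igfbp3 was 279, 697, 712 and 1120 CPM, where each Din-KO value exceeded each WT value, as in 11.3% of all genes. The log2 fold change of Igfbp3 was 0.87 (SE 0.51), with 0.38 when WT replicate 1 was left out and 1.67 when WT replicate 2 was. Igfbp5 was 957, 1034, 707 and 786 CPM and Igfbp7 464, 421, 420 and 332 CPM, both with the Din-KO libraries below the WT libraries, as in 6.59% of all genes. Igfbp5 differed by a log2 fold change of -0.45 (SE 0.18). Igf1 was 229, 949, 180 and 735 CPM and parted the libraries by number and not by genotype. The share of dental follicle-like cells, the class richest in Igf1, went the same way, at 8.61%, 27.1%, 7.87% and 24.1% of cells.

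In dental pulp-like cells the Igf1 values given above, 82.3 and 142.8 CPM in WT against 56.0 and 71.9 CPM in Din-KO, did not overlap between genotypes, the Din-KO values being the lower ones (as in 12.1% of all genes). The log2 fold change of Igf1 was -0.80 (SE 0.29, unadjusted p = 0.025), and -0.47 when WT replicate 2 was left out. Igfbp6 did not overlap either, at 19.9 and 32.5 CPM in WT and 45.0 and 41.3 CPM in Din-KO (both above, 11.2% of all genes), with a log2 fold change of 0.78 (SE 0.27, unadjusted p = 0.021), and 0.50 when WT replicate 1 was left out. With classes set cell by cell from markers the Igfbp6 difference was -0.070. Igfbp3 overlapped between genotypes in pulp, and its log2 fold change of 1.06 (SE 0.52) was 0.16 among cells with Xist, 2.01 without WT replicate 2, and 0.48 when either WT replicate 1 or Din-KO replicate 2 was left out. With the replicate number as a block, 4 members passed in pulp-like cells, namely Igf1 (-0.74), Igfbp3 (1.17), Igfbp4 (0.51) and Igfbp6 (0.88), and of 13429 genes 177 passed as lower and 310 as higher under the block (3.63%), against 0 and 2 without it.

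**Figure D4:**
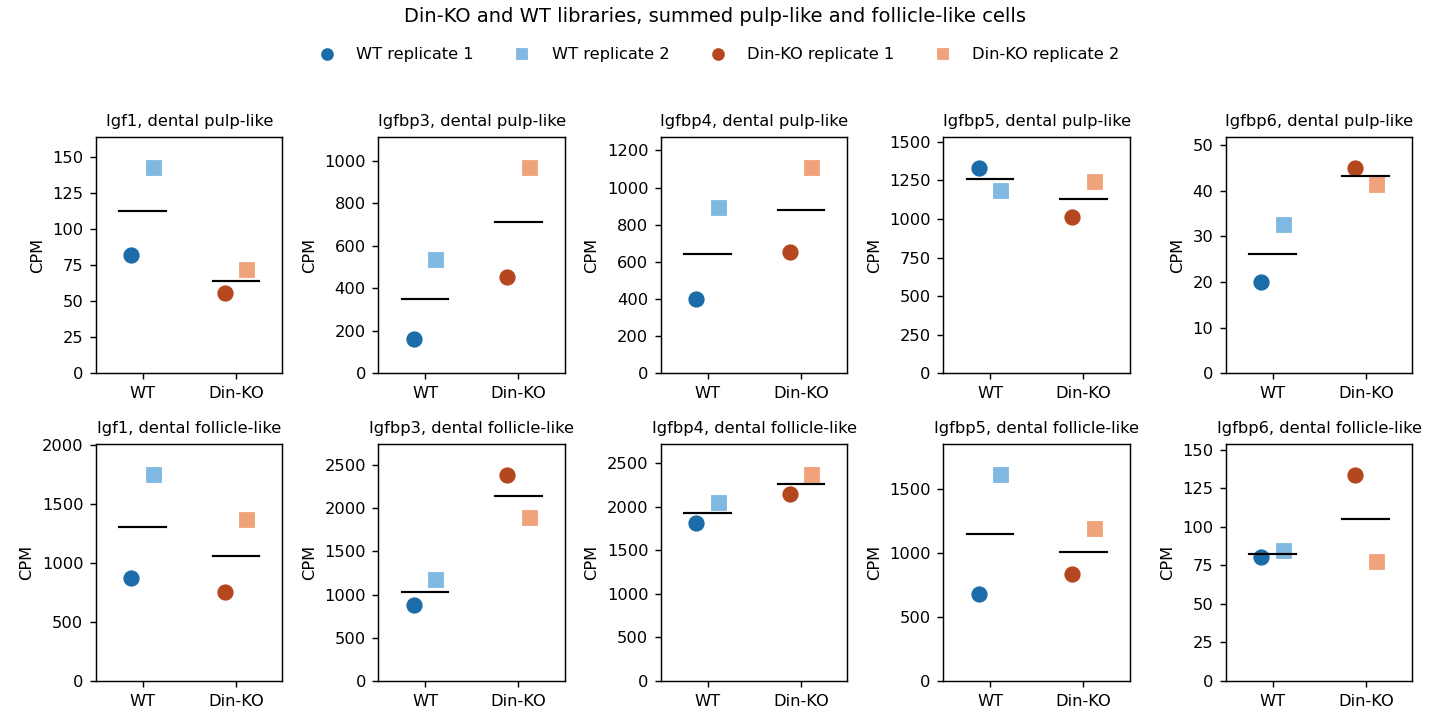
Level (CPM) of Igf1, Igfbp3, Igfbp4, Igfbp5 and Igfbp6 in dental pulp-like cells (upper row) and dental follicle-like cells (lower row), 1 point per library by genotype, with black lines at the group means. The Igfbp3 points of the Din-KO libraries lie at 1890 and 2384 CPM in dental follicle-like cells, above the WT points at 880.5 and 1172 CPM.

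The make-up of the pulp-like class also differed between the WT and Din-KO libraries. Its part in the values above was not tested. The Smoc2 cluster, which is rich in Igfbp3, Igfbp4 and Igfbp6, made up 11.4%, 13.7%, 28.3% and 34.0% of pulp-like cells, and the Cldn10 cluster, rich in Igfbp5, 40.3%, 36.0%, 23.2% and 17.0%. Among cells with Xist alone, the Smoc2 cluster made up 11.4%, 13.7%, 22.5% and 20.7%. The shares are described without a test, because the smallest two-sided exact permutation p of 2 libraries against 2 is 0.333.

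Within single pulp-like clusters, a comparison added after the data were seen, 0 of 8 tested members passed in each of the Cldn10, Vcan and Smoc2 clusters, by edgeR or DESeq2, where 0.0839%, 0% and 0% of all genes did by edgeR. In each of them 1 member had an unadjusted p under 0.05 by edgeR, namely Igfbp3, Igf1 and Igfbp5. The share of all genes at this threshold was not counted for single clusters. In the Smoc2 cluster Igfbp3 was 1264, 3639, 1798 and 2491 CPM, with overlap and a log2 fold change of -0.14 (SE 0.44). In the Cldn10 cluster Igfbp3 was 37.0, 29.9, 64.2 and 74.7 CPM, with both Din-KO libraries above (10.5% of genes) and a log2 fold change of 0.99 (SE 0.32, unadjusted p = 0.008). B-like cells held 3.9, 5.9, 55.0 and 14.1 CPM of Igfbp3 and odontoblast-like cells 7.7, 5.3, 18.8 and 33.9 CPM, higher in the Din-KO libraries as well. Macrophage-like cells, also low in Igfbp3, held 12.9, 49.4, 38.6 and 27.3 CPM, which overlapped between genotypes. The part of free RNA in the Cldn10 values was not tested. In the Vcan cluster Igfbp3 was 20.6, 14.6, 13.4 and 11.5 CPM, with both below (13.5% of genes) and a log2 fold change of -0.49 (SE 0.39), or -0.060 without WT replicate 1. All 4 Vcan cluster levels lay within the range of the B-like levels, whose top was the 55.0 CPM of Din-KO replicate 1. Library by library, the Vcan cluster lay above the B-like level in both WT libraries and below it in both Din-KO libraries. Igfbp6 had both above in the Vcan cluster (11.1% of genes), at 10.7, 4.3, 15.5 and 11.5 CPM, and Igfbp5 both below, at 125.0, 69.6, 63.5 and 9.6 CPM. The Cldn10 and Vcan clusters were compared as a pair chosen after their opposite directions were seen. The adjustment over genes does not cover that choice. The effect on Igfbp3 in the Cldn10 cluster minus that in the Vcan cluster was 1.44 (SE 0.33). It did not pass (edgeR adjusted p = 0.101, with 0.069% of all genes passing). It was 1.38 without Din-KO replicate 2, a fit that leaves 1 Din-KO library. The whole-class value of 1.06 and the values inside the clusters were not tested against each other. Igf1 was 115, 190, 101 and 114 CPM in the Cldn10 cluster, 43.5, 65.3, 33.8 and 11.5 CPM in the Vcan cluster, and 44.5, 314, 24.0 and 80.2 CPM in the Smoc2 cluster, where the WT replicate 2 value rested on 29 cells. The log2 fold changes of Igf1 were -0.47 (SE 0.31), -0.96 (SE 0.41) and -1.78 (SE 0.84), and in the Cldn10 and Vcan clusters both Din-KO libraries were below (14.3% and 13.5% of genes). They moved with single libraries, to -0.18 and -0.0016 in the Cldn10 and Smoc2 clusters without WT replicate 2, and -2.24 and -0.59 in the Vcan cluster without Din-KO replicate 1 and Din-KO replicate 2. In the Smoc2 cluster Igfbp5 was also high in WT replicate 2 alone, at 33.9, 377, 29.7 and 43.2 CPM, and its log2 fold change of -2.39 (SE 0.88) was 0.0074 without that library. Without Din-KO replicate 2 the log2 fold changes there were -2.72 for Igf1 and -2.61 for Igfbp5. That of Igfbp5 was -3.33 there without WT replicate 1. In the Vcan cluster it was -3.42 without Din-KO replicate 1, where the only Din-KO value left was 9.6 CPM from 58 cells. Each of these fits leaves 1 library in a group, so there is no spread within that group.

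In dental follicle-like cells Igfbp3 had the smallest unadjusted p of the members, with the Din-KO libraries at 2384 and 1890 CPM and the WT libraries at 880.5 and 1172 CPM. No Din-KO value was as low as a WT value, as in 15.1% of all genes. The log2 fold change was 1.01 (SE 0.26, unadjusted p = 0.008), and it did not pass the edgeR quasi-likelihood test after adjustment (adjusted p = 1.00). The range without each library in turn was 0.83 to 1.21, and among cells with Xist the value was 1.37 (SE 0.50). Without a filter on low counts the edgeR adjusted p of Igfbp3 was 0.014, and 0.878% of 20263 genes passed. Igfbp4 was the other member with both Din-KO libraries above, by a log2 fold change of 0.17 (SE 0.21), and 0 of 9 members had both below (8.22% of all genes).

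Within the follicle-like clusters, in the same added comparison, the Igfbp3 fold change did not have the same sign in each cluster. In the Sfrp2 cluster Igfbp3 was 1769, 2334, 4306 and 4620 CPM, both Din-KO libraries above (20% of genes), with a log2 fold change of 1.05 (SE 0.21, edgeR adjusted p = 0.295). In the Bmp3 cluster it was 536, 323, 649 and 660 CPM, both above (12% of genes), with 0.58 (SE 0.35), or 0.22 without WT replicate 2. In the Mgp cluster it was 1498, 1704, 2431 and 1337 CPM, with overlap and 0.20 (SE 0.34). Igfbp2 in the Sfrp2 cluster (9.88% of genes) and Igfbp7 in the Bmp3 cluster (9.76% of genes) had both Din-KO libraries below. Igfbp4 in the Sfrp2 cluster (20% of genes) and Igf1r in the Mgp cluster (14.8% of genes) had both above. In the Spp1 cluster Igfbp3 was 88.2, 187, 74.7 and 75.4 CPM, both below (15.4% of genes), with -0.83 (SE 0.40), or -0.20 without WT replicate 2. The adjusted calls were 0 members in each of the 4 clusters, where 0.0732% of all genes passed in the Sfrp2 cluster and 0% in the others, and by DESeq2 1 member, Igfbp3 in the Sfrp2 cluster (adjusted p = 0.046, where 0.293% of all genes passed). It was also the 1 member with an unadjusted p under 0.05 by edgeR in these clusters, where the share of all genes at this threshold was not counted. Without WT replicate 2, which leaves 1 WT library, the log2 fold change of Igfbp3 in the Sfrp2 cluster was 1.24. The Sfrp2 and Spp1 clusters were compared as a pair chosen after their opposite directions were seen. The adjustment over genes does not cover that choice. The effect on Igfbp3 in the Sfrp2 cluster minus that in the Spp1 cluster was 1.81 (SE 0.30). It did not pass (edgeR adjusted p = 0.117, with 0% of all genes passing). Without each library in turn, this difference ranged from 1.46 to 2.16. Each of these fits leaves 1 library in a group, with no spread within it, so no call is read from them.

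**Figure D5:**
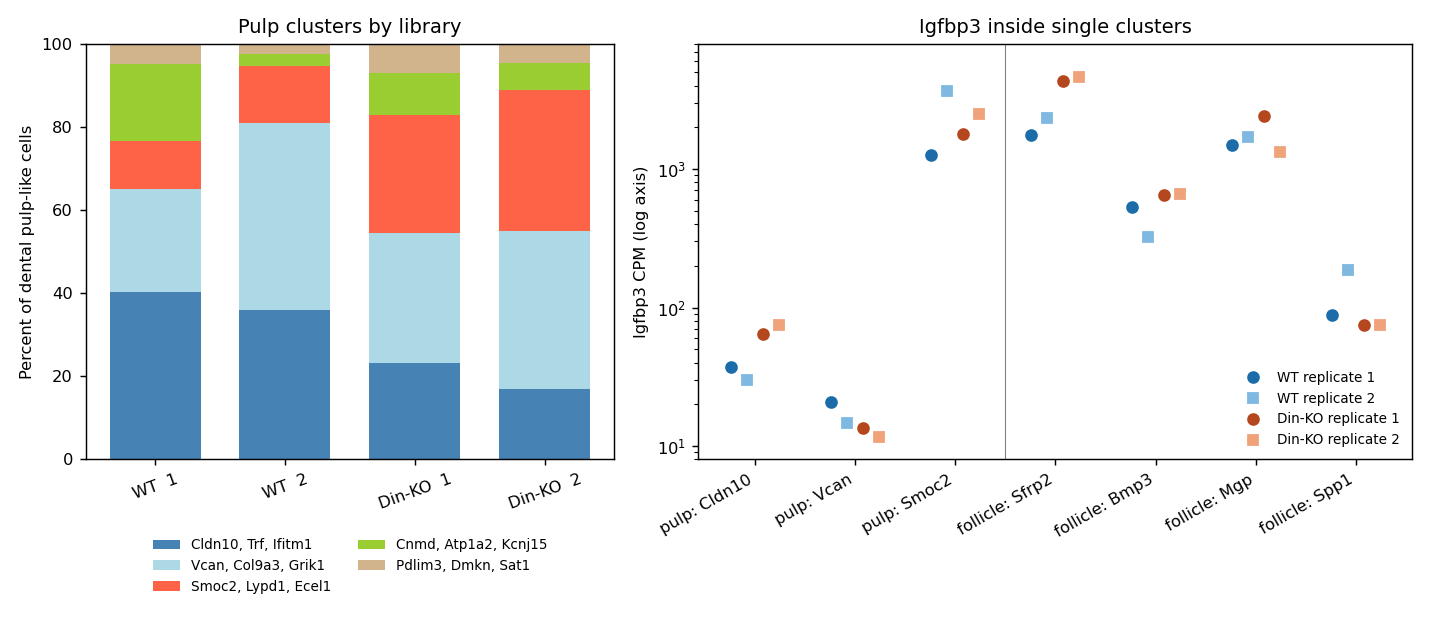
Left, percent of dental pulp-like cells in each pulp-like cluster, as 1 stacked bar per library, and right, the Igfbp3 level (CPM, log axis) within single pulp-like and follicle-like clusters, 1 point per library. The cluster led by Smoc2 holds 28.3% and 34.0% of pulp-like cells in the Din-KO libraries and 11.4% and 13.7% in the WT libraries, while its Igfbp3 levels overlap.

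The difference between the genotype effect in follicle-like and in pulp-like cells was tested as an interaction. None of the members passed edgeR's test after adjustment, nor did any of 13735 genes (0%). An unadjusted p under 0.05 was found for 494 genes and 0 members, and the smallest p of a member was that of Igf1, with a difference of 0.43 (SE 0.22, unadjusted p = 0.089).

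In endothelium-like cells Igf1 was 80.7, 124.3, 48.6 and 30.8 CPM and Igfbp2 was 21.2, 41.4, 9.4 and 10.3 CPM. For each gene the Din-KO values were the lower ones without overlap, as in 13.3% of all genes, and WT replicate 2 was the highest. No member had both Din-KO libraries above (11.4% of all genes). The log2 fold changes were -1.30 (SE 0.33) for Igf1 and -1.61 (SE 0.39) for Igfbp2, with edgeR adjusted p of 0.761 and 0.614. Both stayed negative when each library was left out in turn. Each of these fits leaves 1 library in a group, with no spread within it, so no call is read from them. The fit without WT replicate 1 rests on WT replicate 2 as the only WT library. The 8 mesenchyme markers summed to 559, 3804, 789 and 510.0 CPM in the same cells, with none at 0, and the 9 perivascular markers to 803, 2050, 796 and 704 CPM, with at most 1 at 0. WT replicate 2 was highest for these too, and their part in the Igf1 and Igfbp2 values was not tested. Igfbp7, Igfbp3 and Igfbp4, the abundant endothelial members, overlapped between genotypes. Their log2 fold changes were 0.17 (SE 0.27), 0.39 (SE 0.28, or 0.13 without WT replicate 1) and -0.025 (SE 0.29).

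In macrophage-like cells the Igf1 values given above overlapped between genotypes, with a log2 fold change of -0.07 (SE 0.27). Igf1r, at 39.5 and 49.4 CPM in WT and 31.2 and 38.3 CPM in Din-KO, was the only member with both Din-KO libraries below, as in 16.1% of all genes, and its log2 fold change was -0.31 (SE 0.27). None of the 7 had both above (9.34% of all genes). Igfbp4 overlapped, at -0.11 (SE 0.27).

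A further 53 genes of the pathway were followed as lists: other ligands, receptors and docking proteins, other binding proteins, proteases and their inhibitors, growth hormone input, the PI3K-AKT-FOXO arm, receptor turnover and IGF mRNA-binding proteins. Of those tested, 0 of 47 passed in mesenchyme-like, 0 of 43 in pulp-like and 0 of 44 in follicle-like cells by edgeR. In endothelium-like and macrophage-like cells 0 of 41 and 0 of 39 passed. In the same order of classes, 1, 3, 3, 1 and 0 had an unadjusted p under 0.05. Of all genes, 1.03%, 1.86%, 2.23%, 2.71% and 2.65% did. The median log2 fold changes were 0.012, 0.0072, 0.024, -0.057 and 0.042, against -0.021 to -0.0027 over all genes. For the members themselves the medians were -0.17, 0.21, -0.10, -0.0017 and -0.072. The genes named next were chosen after their values were seen, for an unadjusted p under 0.05. Among the proteases and inhibitors in pulp-like cells, Pappa, the gene of pappalysin-1, was 27.2, 38.7, 47.8 and 66.6 CPM (log2 fold change 0.80, SE 0.26), and in mesenchyme-like cells, which include the pulp, 25.1, 29.1, 38.9 and 54.3 CPM (0.74, SE 0.24). Stc2, the gene of a pappalysin inhibitor, was 187, 241, 133 and 123 CPM (log2 fold change -0.73, SE 0.24). Insrr, the gene of a receptor related to the insulin receptor, was the remaining gene in pulp, close to 0 at 0.13, 0.42, 1.73 and 1.33 CPM. Neither Pappa nor Stc2 overlapped between genotypes in pulp-like cells. There 11.2% of all genes had both Din-KO libraries above, like Pappa, and 12.1% both below, like Stc2. Neither passed after adjustment, and Stc2 was among the leading genes of the Cldn10 and Cnmd clusters. In follicle-like cells Adam12, another IGFBP protease gene, was 47.8, 36.4, 21.8 and 27.4 CPM (-0.83, SE 0.24), and Irs2, the gene of a docking protein of the receptor, 11.5, 16.1, 19.6 and 27.3 CPM (0.70, SE 0.28). Mdm2, whose protein marks IGF1R for breakdown, was 20.6, 27.7, 32.8 and 55.0 CPM there (0.80, SE 0.30). In endothelium-like cells Htra1, the gene of a serine protease that cuts IGFBPs, was 81.6, 82.9, 41.5 and 63.4 CPM (-0.65, SE 0.27).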

How the data were processed

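The authors deposited raw gene-by-barcode UMI counts for each of the 4 libraries. They were made with 10x 3' v3.1 chemistry and, per the file headers, Cell Ranger 6.0.2. The submitters' processing notes also name bcl2fastq, Seurat, mm10 and GRCm38. The thresholds for a cell were 1000 detected genes or more, mitochondrial UMIs of no more than 10% and hemoglobin UMIs of no more than 3%, and the cells were clustered with Seurat 5.3.0. Scrublet called 0.0874% to 0.577% of cells doublets and so had not worked, and no doublets were removed. Free RNA was not removed. Replicate numbers come from the sample titles. The library names in the labels number them otherwise (WT-2 and KO-2 for replicate 1, CD1-WT and CD2-KO for replicate 2). Levels are CPM of class sums with at least 20 cells in a library. Genotypes were compared with edgeR 4.0.16 (quasi-likelihood, TMM, Benjamini-Hochberg over all genes kept by its filter on low counts), with DESeq2 1.42.0 as an alternative. The fit was tested on simulated data. Other alternatives were RLE size factors, no filter, a replicate block, each library left out, Xist cells, another cluster resolution, classes set cell by cell, removed doublets and 500 genes. The numbers 1 and 2 are shared by the genotypes and did not enter the model, except as the replicate block. The genes named are the 9 members, genes from the 3 most like each (1 is not reported here), and of the pathway lists those past the threshold and up to 3 with the highest CPM. Members and lists were chosen with earlier results of these data known.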

Additional observations from a re-analysis of the deposited data

Results flagged for a closer look

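The log2 fold change of Igfbp3 in Din-KO against WT libraries, called the effect here, went opposite ways in clusters of the same class. The pairs were chosen after these directions were seen. Sex and genotype are not separated in these libraries, and cells with Xist were not compared within clusters. The class of the Spp1 cluster is less sure. In the dental follicle-like class the effect in the cluster led by Sfrp2 minus that in the cluster led by Spp1 was 1.81 (SE 0.30), with an adjusted p of 0.117 by edgeR's quasi-likelihood test, and 0 of 11034 genes passed this test of the difference. In the dental pulp-like class the effect in the cluster led by Cldn10 minus that in the cluster led by Vcan was 1.44 (SE 0.33), with an edgeR adjusted p of 0.101, where 0.069% of 11588 genes passed. In each pair the 2 Din-KO values were the higher ones in the first cluster and the lower ones in the second, without overlap. Both Din-KO libraries lay above in 20% of all genes in the Sfrp2 cluster and 10.5% in the Cldn10 cluster. Both lay below in 15.4% of all genes in the Spp1 cluster and 13.5% in the Vcan cluster. The Igfbp3 levels of the Vcan cluster all lay within the range of the B-like levels, taken as background. Library by library, they lay above the B-like level in both WT libraries and below it in both Din-KO libraries. The fold changes in the second clusters moved with 1 library, since that in the Spp1 cluster was -0.83 with all libraries and -0.20 without WT replicate 2, and that in the Vcan cluster -0.49 with all and -0.060 without WT replicate 1. Without each library in turn, the first difference ranged from 1.46 to 2.16 and the second from 1.32 to 1.80. Both passed in some of these fits and not in others. Each fit leaves 1 library in a group, with no spread within it, so no call is read from these fits.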

How the results depend on the processing

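With 2 libraries a group and 16.9% of cells in the follicle-like class, small differences were not detectable in the fit without a block. Sex, make-up of the libraries and genotype were not separated. Of 90 alternatives to the level ratios between leading classes 75 moved by less than the spread between libraries. Of 563 alternatives to member fold changes 498 kept direction and call. Each count of members called was 0 in the main fits, and of 130 alternatives to these counts 115 stayed at 0 and 15 rose above it. The cause was not tested for any value that follows. Genotype in perivascular-like cells was not tested, with under 20 cells in 2 libraries.

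The log2 level ratio of follicle-like to perivascular-like cells for Igf1 was 0.15 as a mean over cells (0.76 as reported). That of perivascular-like to endothelium-like cells for Igf2r was 0.81 after thinning and -0.18 with classes set cell by cell (1.24). For Igfbp7 the same ratio was 0.12 after thinning, 0.048 over cells, 0.30 without doublets, 0.15 at 5 or more cells and -1.30 cell by cell (0.45). The ratio of epithelium-like to follicle-like cells for Igfbp2 was -0.68 after thinning, -0.36 over cells, -0.0016 at resolution 0.5 and -0.80 without doublets (0.13), and that of pulp-like to follicle-like cells for Igfbp5 was -0.0093 over cells (0.22).

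Without a filter on low counts 1 member passed in follicle-like cells (Igfbp3, with 0.878% of all genes), 2 in endothelium-like cells (Igf1, Igfbp2, 1.06%), 2 in the Smoc2 cluster (0.125%) and 1 in the Sfrp2 cluster (1.03%), and both differences between clusters for Igfbp3 passed (1.83 and 1.44, with 0.765% and 0.276%). DESeq2 called 1 member in the Sfrp2 cluster (0.293%). Among cells with Xist, fold changes turned to -0.031 for Igfbp4 in mesenchyme-like cells, -0.066 for Igf2r, -0.049 for Igfbp4 and 0.21 for Igfbp5 in pulp-like cells, 0.15 for Igfbp2, 0.22 for Igfbp5 and 0.42 for Igfbp7 in follicle-like cells, and -0.39 for Igf2r and -0.19 for Igfbp3 in macrophage-like cells. The Din-KO minus WT difference in the share of pulp-like cells was 9.04 points for the Smoc2 cluster and -11.4 for the Cldn10 cluster among cells with Xist, against 18.5 and -18.1 in all cells. With classes set cell by cell, pulp-like fold changes turned to -0.0033 for Igf1r, -0.087 for Igf2r and -0.070 for Igfbp6 and the follicle-like one to 0.026 for Igfbp2, and at 500 genes to -0.11 for Igf2r in pulp-like and 0.13 for Igfbp7 in macrophage-like cells, where it was 0.029 without doublets.

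Same-numbered libraries deviated together, with correlations of 0.448 to 0.783 over the 5 classes. They were also alike in the pulp-like share and in cells kept, at 3903 and 4575 for replicate 1 and 1560 and 1272 for replicate 2. The titles give them only a number in common, and the library names group the same libraries. What the same-numbered libraries share in handling is not given. With the replicate block 4 members were called in pulp-like cells, 1 each in the Cldn10 and Vcan clusters (with 1.17% and 0.835% of all genes) and 2 each in the Smoc2 and Sfrp2 clusters (0.54% and 3.17%), and 0 in the other classes. Of all genes, 177 were called lower and 310 higher in pulp-like cells, 3 and 27 in mesenchyme-like, 6 and 64 in follicle-like, 15 and 93 in endothelium-like and 5 and 71 in macrophage-like cells. The block turned Igfbp4 to 0.0047 in endothelium-like cells and Igfbp3 to 0.020 in the Smoc2 cluster.

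Without each library in turn, some members were called in endothelium-like cells and in the Smoc2, Vcan and Sfrp2 clusters. No member was called in the other classes and clusters. Each of these fits leaves 1 library in a group, with no spread within it, so their calls are weak and are not counted here. The differences for Igfbp3 ranged from 1.46 to 2.16 (Sfrp2 minus Spp1) and 1.32 to 1.80 (Cldn10 minus Vcan), and the level ratios from -0.15 to 0.51 for Igfbp2 and -0.034 to 0.44 for Igfbp5. Some fold changes spanned 0. In mesenchyme-like cells the range was -1.73 to 0.95 for Igf1, -0.0045 to 0.28 for Igf1r, -0.66 to 0.63 for Igf2r, -0.95 to 0.73 for Igfbp2, -0.21 to 0.78 for Igfbp4, -0.030 to 0.72 for Igfbp6. In dental pulp-like cells the range was -0.061 to 0.49 for Igf1r, -0.45 to 0.55 for Igf2r, -0.33 to 0.0050 for Igfbp5, -0.26 to 0.16 for Igfbp7. In dental follicle-like cells the range was -0.81 to 0.20 for Igf1, -0.13 to 0.57 for Igf1r, -0.45 to 0.10 for Igf2r, -0.43 to 0.12 for Igfbp2, -0.72 to 0.49 for Igfbp5, -0.15 to 0.68 for Igfbp6, -0.38 to 0.15 for Igfbp7. In endothelium-like cells the range was -0.56 to 0.17 for Igf1r, -0.24 to 0.32 for Igf2r, -0.31 to 0.33 for Igfbp4, -0.49 to 0.86 for Igfbp5, -0.066 to 0.46 for Igfbp7. In macrophage-like cells the range was -0.15 to 0.032 for Igf1, -0.77 to 1.11 for Igf2r, -0.41 to 1.44 for Igfbp3, -0.11 to 0.47 for Igfbp5, -0.63 to 0.21 for Igfbp7. In clusters the range of Igfbp3 was -0.29 to 0.57 in the Mgp cluster, Igfbp3 was -0.66 to 0.74 in the Smoc2 cluster, Igfbp5 was -3.33 to 0.0074 in the Smoc2 cluster.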

Other observations

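Genes of the pathway lists had their own cell classes. Ghr, the growth hormone receptor gene, was read at 155 ± 30 CPM (SD, 4 libraries) in dental pulp-like cells, against 53.2 ± 6.5 CPM in dental follicle-like and 9.3 ± 3.8 CPM in macrophage-like cells. Stc2 was read at 171 ± 54 CPM in dental pulp-like and 9.6 ± 4.8 CPM in dental follicle-like cells, while Stc1 was highest in perivascular-like cells, at 269 ± 13 CPM over 2 libraries. Insr, the insulin receptor gene, was highest in endothelium-like cells, at 181 ± 55 CPM, and Grb10, the gene of an adaptor that dampens signalling from both receptors, in dental follicle-like cells, at 294 ± 79 CPM. Igfbpl1 was highest in epithelium-like cells, at 85.5 ± 65.8 CPM, and stayed under 1 CPM in pulp-like and follicle-like cells. Igfbp1, best known from liver, was read at 1.2 CPM or less in pulp-like, follicle-like, endothelium-like and macrophage-like cells of each library.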
